A study of Mus musculus with 10 samples.

Results

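The respiratory chain of the inner mitochondrial membrane was followed at the RNA level in lumbar spinal cord of mice given paclitaxel or vehicle, through its nuclear-encoded subunit genes. The genes were taken by symbol alone, under a rule chosen with earlier results of these data known. They were all listed genes named Nduf with a subunit letter and number, Sdha to Sdhd, and every Uqcr, Cox4 to Cox8 and Atp5 symbol, with Cyc1 and Cycs. The rule gave 85 of 24411 listed genes, of which 36 belong to complex I, 4 to complex II, 9 to complex III, 1 is cytochrome c, 18 belong to complex IV and 17 to complex V. A filter on low counts left 79 of the 85 in the test, and the 6 left out, all of complex IV, are described with that complex. The symbols Atp5s, Atp5sl and Cox7a2l fall under the rule although their products are not structural subunits of complex V or, for Cox7a2l, of the free complex IV. The subunits encoded by mitochondrial DNA are not analysed here.

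Complexes I and II pass electrons from NADH and from succinate to ubiquinone, complex III passes them on to cytochrome c, and complex IV to oxygen. Complexes I, III and IV pump protons out of the matrix as they do so, and complex V, the ATP synthase, makes ATP as protons flow back. Spinal neurons depend on this ATP for ion pumping and synaptic transmission, and mitochondria of sensory neurons have long been studied in painful neuropathy caused by paclitaxel, a cancer drug that stabilises microtubules.

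There were 5 libraries of the paclitaxel group and 5 of the vehicle group, each from lumbar cord RNA. Sources used here give no strain, sex, age, dose or schedule, and nothing says whether the libraries of a group came from separate animals. The p-values below therefore speak only of the spread among these libraries. Library totals were between 3676259 and 5432072 counts with paclitaxel and between 4585899 and 7791594 counts with vehicle, so that 3 counts correspond to between 0.385 and 0.819 CPM (counts scaled to library size). Defining genes of cord tissue were abundant. Snap25 of neurons averaged 2947 CPM in paclitaxel cords and 2882 CPM in vehicle cords, Mbp of oligodendrocytes 13173 and 13100 CPM, and Gfap of astrocytes 1329 and 1304 CPM, in the same order of groups. Snap25 does not stand for its list, since 5 of 12 neuron markers were higher in value with paclitaxel and 7 lower. Paclitaxel replicate 3 and vehicle replicate 4 stood apart from the other libraries in the summed level of 8 markers of meninges and fibroblasts, at 884 and 766 CPM. The other paclitaxel libraries lay between 409 and 469 CPM and the other vehicle libraries between 377 and 472 CPM. Most of each sum was Ptgds, which oligodendrocytes also express, at 829 CPM in paclitaxel replicate 3 and 666 CPM in vehicle replicate 4. The other 7 markers summed to 54.6 CPM in paclitaxel replicate 3, the lowest of the paclitaxel libraries (others 58.4 to 69.3 CPM), and to 100.3 CPM in vehicle replicate 4, the highest of the vehicle libraries (others 54.2 to 67.4 CPM). These were bulk samples, in which fewer cells of a type and less RNA per cell cannot be told apart.

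Respiratory chain transcripts were slightly lower in value with paclitaxel, and no gene passed the test. The 85 genes together summed to 10706, 10859, 10739, 11394 and 11266 CPM in paclitaxel replicates 1 to 5, against 11255, 11452, 11718, 11061 and 11591 CPM in vehicle replicates 1 to 5. The groups overlapped: paclitaxel replicates 4 and 5 lay within the vehicle range, and the other paclitaxel libraries lay below all vehicle libraries. The means were 10993 ± 316 CPM in paclitaxel cords and 11416 ± 262 CPM in vehicle cords (mean and SD, n = 5 each), a difference of -3.70%. The genes took between 1.06% and 1.14% of all counts in paclitaxel libraries, against 1.10% to 1.16% in vehicle libraries.

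Of the 79 genes tested, 64 had a log2 fold change below 0 and 15 above it, where 50.9% of all 13287 genes tested lay below 0. Their median log2 fold change was -0.07, against -0.003 over all genes tested, and the size of a typical difference over all genes, whatever its sign, was 0.08. In edgeR's quasi-likelihood test 0 of the 79 reached an adjusted p under 0.05 (smallest adjusted p = 0.792), nor did any of all 13287 genes, and DESeq2 and limma-voom also called 0 of the 79. At an unadjusted p under 0.05, 9 of the 79 were lower (11.4%) and 0 higher, where 3.12% of all genes tested were lower and 2.94% higher, 6.07% in either direction. DESeq2 gave 8 lower genes by the same threshold and limma-voom 9. The count was 5 without paclitaxel replicate 1, with a median log2 fold change of -0.03, and 4 without vehicle replicate 3. Without paclitaxel replicate 3 and vehicle replicate 4 together it was 7, with a median of -0.07. The 9 genes were Ndufb2 and Ndufa3 of complex I, Uqcr11 and Uqcr10 of complex III, Cox8a and Cox4i1 of complex IV, and Atp5e, Atp5g1 and Atp5g2 of complex V.

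**Figure D1:**
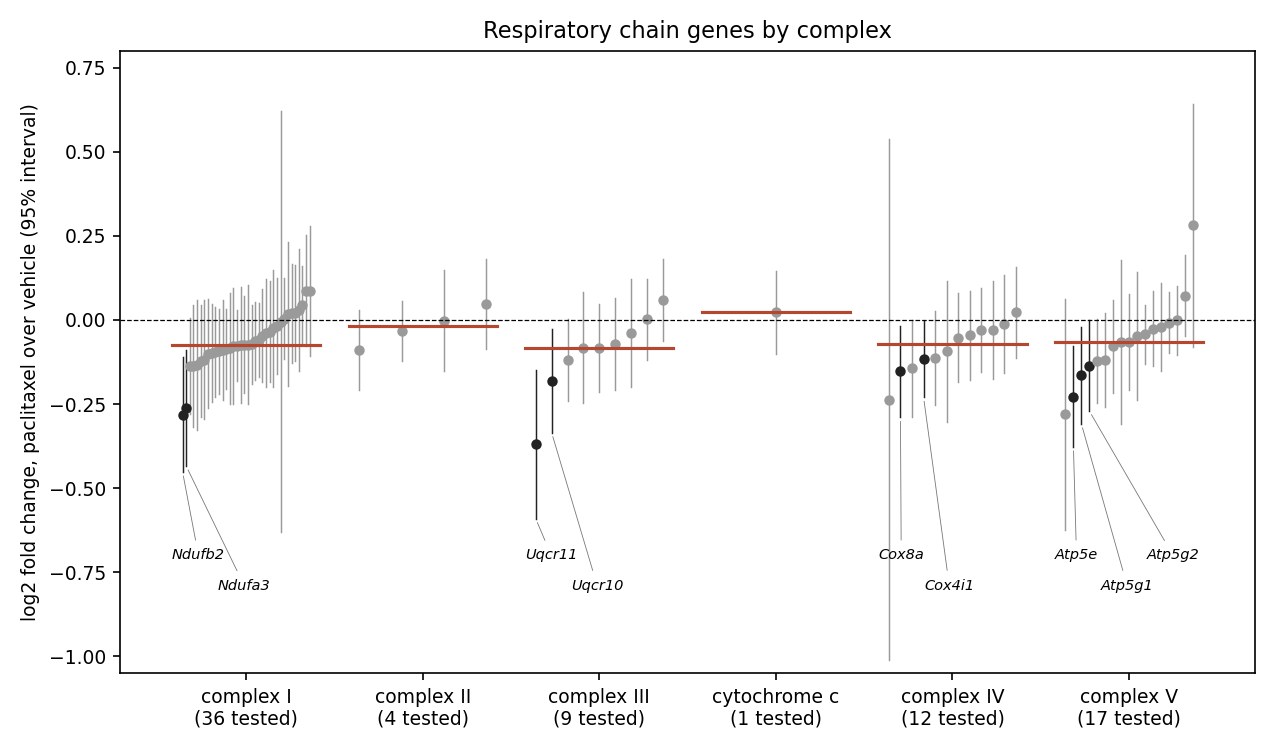
Log2 fold change of paclitaxel over vehicle for each of the 79 tested genes, sorted within its complex; points are estimates of edgeR's quasi-likelihood fit, vertical lines 95% intervals and red bars the median of each complex. Black points are the 9 genes at an unadjusted p under 0.05, all below 0, and the intervals of the others cross the dashed line at 0.

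The 9 genes have in common that they encode small proteins and have short transcripts, from 421 to 755 bases. Read out library by library, they did not separate the groups in the same way, as the plot of their CPM values shows. All 5 paclitaxel libraries lay below the vehicle mean for 16 of the 79 genes tested (20.3%), where this was so for 8.65% of all genes tested. The 16 include 8 of the 9 genes, which were themselves picked for being lower. For 1 of the 79 (1.27%), Uqcrc2, all 5 lay above, where 6.71% of all genes tested did. Expected counts behind the values ran from 129 for Ndufb2 to 3858 for Cox4i1.

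**Figure D2:**
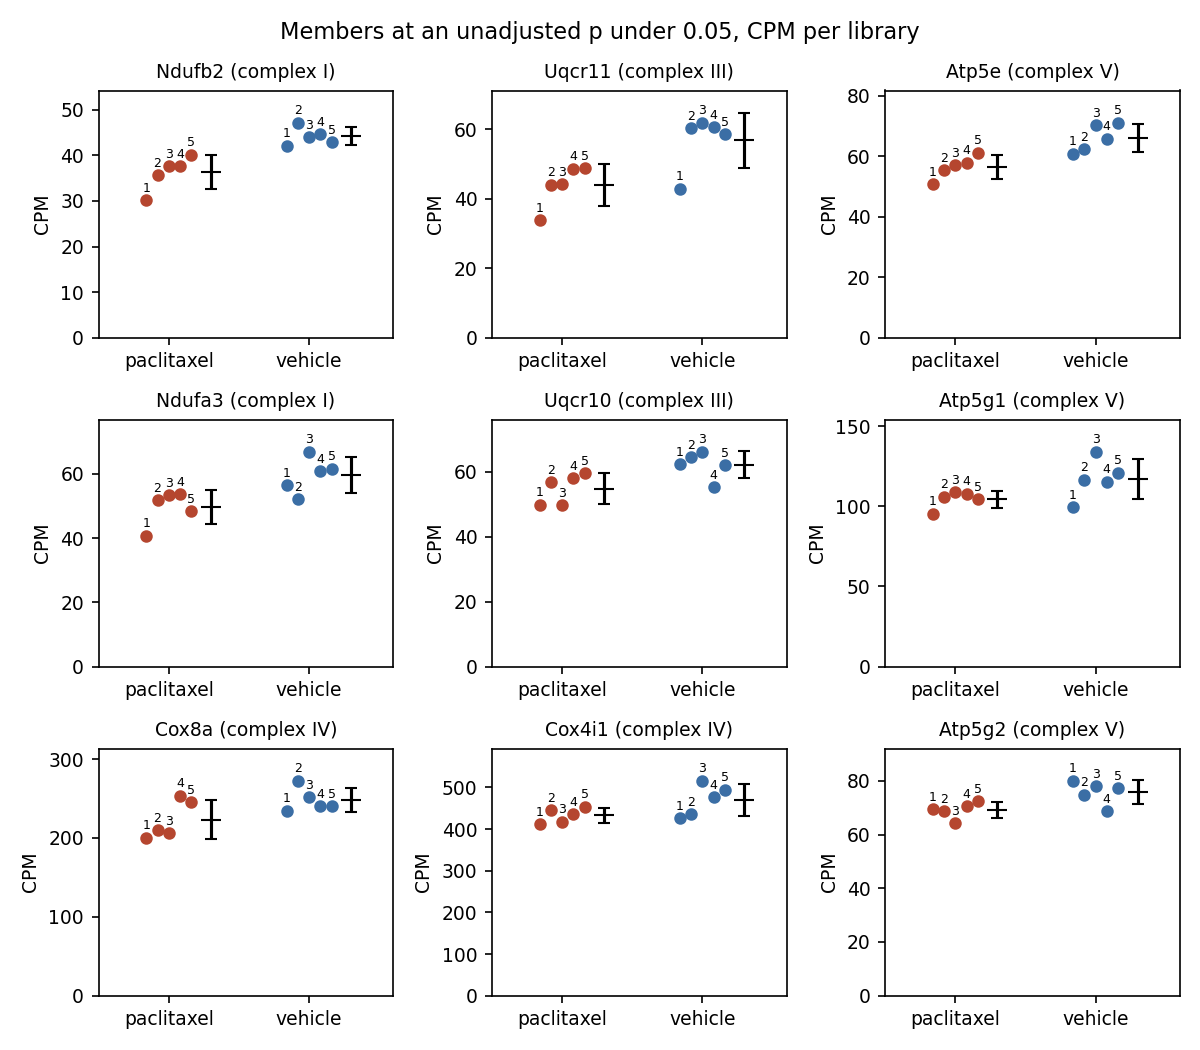
CPM of the 9 genes at an unadjusted p under 0.05 in each library, paclitaxel in red on the left and vehicle in blue on the right, with replicate numbers beside the points and bars for mean ± SD (n = 5 each); each axis starts at 0. Ndufb2 is the gene whose groups do not touch (30.2 to 40.2 CPM with paclitaxel, 42.1 to 47.2 CPM with vehicle), and for Uqcr11 vehicle replicate 1 sits among the paclitaxel libraries.

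Complex I oxidises NADH and is the largest complex of the chain, built of a catalytic core conserved from bacteria and many accessory subunits. Its 36 genes summed to 3046 ± 142 CPM in paclitaxel cords and 3167 ± 77.4 CPM in vehicle cords (mean and SD, n = 5 each), with values of 2863, 2970, 3035, 3231 and 3130 CPM in the paclitaxel libraries and 3134, 3203, 3232, 3046 and 3218 CPM in the vehicle libraries. The groups overlapped, and paclitaxel replicates 1 to 3 were the lowest of the 10 libraries. Of the 36, 28 were lower in value and 8 higher, with a median log2 fold change of -0.07. The 7 core genes, which carry the flavin and iron-sulfur centres, had a median of -0.05, and the 29 accessory genes one of -0.07.

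Ndufb2, an accessory subunit of the membrane arm of complex I, lies at chr6:39592565-39599843 (GRCm38.p6). It had 30.2, 35.7, 37.6, 37.7 and 40.2 CPM with paclitaxel, against 42.1, 47.2, 44.0, 44.7 and 42.9 CPM with vehicle. Every paclitaxel library lay below every vehicle library, which among the 79 genes held for Ndufb2 alone, where the groups of 0.625% of all genes tested did not overlap in this direction and those of 0.467% in the other. Its means were 36.3 ± 3.73 CPM in paclitaxel cords and 44.2 ± 1.94 CPM in vehicle cords (mean and SD, n = 5 each). On the log2 scale the difference was -0.28 (SE 0.08), and it did not pass (edgeR, unadjusted p = 0.00228, adjusted p = 0.792). With p as the order it ranked 28 among all genes, the highest place of any of the 79.

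Ndufa3, another small accessory subunit, lies at chr7:3617347-3620165. Its values were 40.8, 51.8, 53.3, 53.8 and 48.4 CPM with paclitaxel, against 56.4, 52.1, 66.9, 60.8 and 61.6 CPM with vehicle. Vehicle replicate 2 lay among the paclitaxel libraries, and the other vehicle libraries were above all of them. This was a log2 fold change of -0.26 (SE 0.08; edgeR unadjusted p = 0.00456). Next in complex I came Ndufb10, a subunit of the membrane arm, and Ndufa2, a subunit of the matrix arm. Ndufb10 averaged 103 ± 9.94 CPM in paclitaxel cords and 114 ± 7.75 CPM in vehicle cords, and Ndufa2 averaged 40.3 ± 4.79 CPM in paclitaxel cords and 44.5 ± 3.55 CPM in vehicle cords (mean and SD, n = 5 each). The log2 fold change of each was -0.14, with unadjusted p of 0.0613 and 0.132 in edgeR, and the groups of both genes overlapped. Read per kilobase of transcript, so that genes can be set beside each other, the highest level of complex I belonged to Ndufa4, at 265 CPM per kilobase in paclitaxel cords and 261 in vehicle cords, and the lowest to Ndufs4, at 25.4 in paclitaxel cords and 24.0 in vehicle cords; both were named after their levels were seen. Ndufa4 has since been described as a component of complex IV, so its place in complex I here follows the symbol.

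Ndufs5, an accessory subunit of complex I, had the widest interval of complex I and has a near-identical copy, so its values are uncertain; it was singled out after its values were seen. Ndufs5 was listed at 53.4, 42.3, 29.9, 88.9 and 36.5 CPM with paclitaxel, against 45.4, 53.5, 45.8, 53.4 and 49.1 CPM with vehicle. The pseudogene BC002163, which is listed beside it, had 24.4, 41.8, 45.0, 5.18 and 47.2 CPM in paclitaxel libraries and 45.0, 28.3, 36.7, 36.7 and 33.5 CPM in vehicle libraries. In paclitaxel replicate 4 Ndufs5 was highest and BC002163 lowest of all 10 libraries. The sum of both was 77.8, 84.1, 74.9, 94.1 and 83.7 CPM with paclitaxel, against 90.4, 81.8, 82.5, 90.1 and 82.5 CPM with vehicle, so the sums spread less than either gene and the groups overlapped. The log2 fold change of Ndufs5 alone was -0.01 with an SE of 0.27, the largest SE in complex I. In all, 12 of the 85 genes have a transcript at least 95% identical over at least 50% of its length to that of another gene, and for 2 of them, Ndufs5 and Cox7c, such a copy is listed in the table. Atp5g2 is the gene among the 9 that has such copies. For the other 10 no copy has a row in the table. Expected counts divide shared reads between genes by a model, and the part of this division in the values of the 12 was not tested. On the chromosome 26 of the 85 overlap a RefSeq gene, 3 of the 12 and among the 9 only Uqcr10 included, and the strand setting of the counting is not given in the sources used here.

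**Figure D3:**
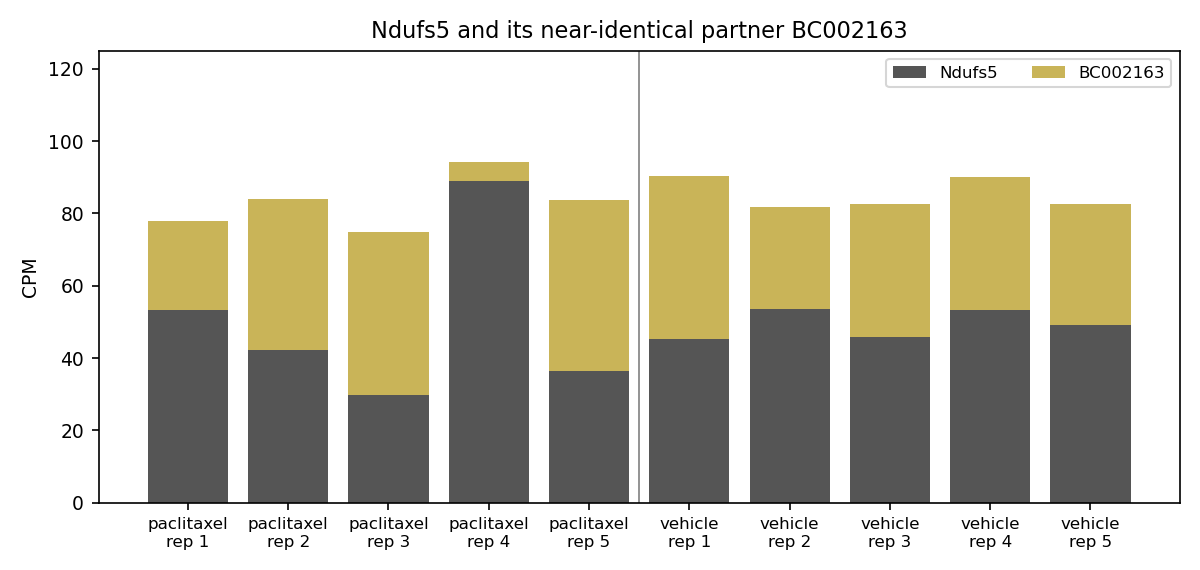
CPM of Ndufs5 (dark) and of the near-identical BC002163 (light), stacked for each library, paclitaxel libraries on the left and vehicle libraries on the right. The height of the stack stays between 74.9 and 94.1 CPM while the division between the genes shifts, most in paclitaxel replicate 4.

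Complex II, succinate dehydrogenase, is shared with the citric acid cycle and all its subunits are nuclear-encoded. Without any correction its 4 genes had the median log2 fold change nearest 0 among the complexes with several members, at -0.02. Of the 4, 3 were lower in value and 1 higher. When libraries were adjusted by loess for length and GC, as described below, the median was -0.03. Among these complexes only complex III then lay further from 0, at -0.04. Sdha, the flavoprotein, averaged 576 ± 16.5 CPM in paclitaxel cords and 590 ± 9.32 CPM in vehicle cords (mean and SD, n = 5 each), and its log2 fold change was -0.03 (SE 0.04). Sdhb, the iron-sulfur subunit, averaged 107 ± 5.14 CPM in paclitaxel cords and 113 ± 3.39 CPM in vehicle cords (log2 fold change -0.09, SE 0.06). Of the membrane anchors, Sdhc differed by -0.002 (SE 0.07) and Sdhd by 0.05 (SE 0.06) on the log2 scale. The groups overlapped for all 4 genes, and none reached an unadjusted p under 0.05 in edgeR. The complex II genes summed to 874, 844, 814, 844 and 845 CPM with paclitaxel, against 863, 867, 862, 837 and 881 CPM with vehicle, and the intervals of the 4 genes allow changes between 0.865-fold for Sdhb and 1.13-fold for Sdhd. Whether complex II differed from the other complexes was not tested.

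Complex III, the cytochrome bc1 complex, oxidises ubiquinol. Its 9 genes summed to 1026 ± 30.5 CPM in paclitaxel cords and 1079 ± 24.7 CPM in vehicle cords (mean and SD, n = 5 each), and 7 were lower in value and 2 higher, with a median log2 fold change of -0.08. Uqcr11, a small accessory subunit at chr10:80402997-80406821, had the largest difference of the 79 genes. Its values were 33.7, 44.0, 44.2, 48.6 and 48.8 CPM with paclitaxel, against 42.8, 60.3, 61.8, 60.5 and 58.6 CPM with vehicle. All paclitaxel libraries lay below 4 of the vehicle libraries, and vehicle replicate 1 lay among the paclitaxel values. The log2 fold change was -0.37 (SE 0.11), a 0.774-fold level with a 95% interval from 0.664 to 0.902, and it did not pass (edgeR, unadjusted p = 0.00233, adjusted p = 0.792).

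Uqcr10, the other small accessory subunit of the 9 genes (chr11:4701968-4704344), had 49.9, 56.7, 49.7, 58.1 and 59.6 CPM with paclitaxel, against 62.4, 64.6, 66.2, 55.3 and 62.2 CPM with vehicle. Only vehicle replicate 4 reached into the paclitaxel range. Its log2 fold change was -0.18 (SE 0.07; edgeR unadjusted p = 0.0238). The core protein gene Uqcrc1 averaged 232 ± 16.6 CPM in paclitaxel cords and 253 ± 17.8 CPM in vehicle cords (mean and SD, n = 5 each), a log2 fold change of -0.12 (SE 0.06). Uqcrh, the hinge protein beside cytochrome c1, differed by -0.08 (SE 0.06) and Cyc1, the haem-bearing cytochrome c1 itself, by -0.07 (SE 0.07). Uqcrc2, the partner of Uqcrc1 in the core, averaged 179 ± 7.90 CPM in paclitaxel cords and 171 ± 13.6 CPM in vehicle cords (mean and SD, n = 5 each), a log2 fold change of 0.06 (SE 0.06). Uqcrc2, named after its values were seen, is the gene with all 5 paclitaxel libraries above the vehicle mean, and its groups overlapped. Cycs, the mobile carrier cytochrome c that links complexes III and IV, averaged 175 ± 7.39 CPM in paclitaxel cords and 172 ± 13.5 CPM in vehicle cords (mean and SD, n = 5 each; log2 fold change 0.02, SE 0.06).

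Complex IV, cytochrome c oxidase, takes its catalytic subunits from mitochondrial DNA and the subunits described here from the nucleus. Its 18 genes summed to 1726, 1930, 1855, 1995 and 1988 CPM with paclitaxel, against 1875, 2017, 2126, 1987 and 2067 CPM with vehicle. Paclitaxel replicates 1 and 3 were below all vehicle libraries, and the other 3 paclitaxel libraries lay within the vehicle range. Of the 12 genes tested, 11 were lower in value and 1 higher, with a median log2 fold change of -0.07. The means of the sums differed by -5.74%, the largest such difference of the complexes, and whether it exceeded those of other complexes was not tested.

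Cox8a encodes the ubiquitous isoform of subunit VIII (chr19:7215158-7217616). Its values were 200, 210, 206, 254 and 245 CPM with paclitaxel, against 235, 273, 251, 240 and 240 CPM with vehicle. Paclitaxel replicates 1 to 3 lay below all vehicle libraries and replicates 4 and 5 among them. Its log2 fold change was -0.15 (SE 0.07; edgeR unadjusted p = 0.0289). Cox4i1 encodes the ubiquitous isoform of subunit IV, to which ATP binds, and lies at chr8:120668225-120674209. It had 411, 446, 418, 435 and 454 CPM with paclitaxel, against 426, 435, 516, 476 and 494 CPM with vehicle, and its groups overlapped through vehicle replicates 1 and 2. On the log2 scale it differed by -0.12 (SE 0.05; edgeR unadjusted p = 0.0435). Per kilobase of transcript Cox4i1 had the highest level of complex IV, at 573 CPM per kilobase in paclitaxel cords and 622 in vehicle cords.

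Several complex IV subunits come in isoforms that are used by different tissues, and the cord libraries held chiefly the ubiquitous ones. The isoforms known from heart and skeletal muscle were near the detection limit. Cox7a1 was the only one of them tested, at 2.15 ± 1.21 CPM in paclitaxel cords and 2.66 ± 0.952 CPM in vehicle cords (mean and SD, n = 5 each), while Cox7a2, the form found in most tissues, averaged 90.3 ± 7.64 CPM in paclitaxel cords and 93.6 ± 1.80 CPM in vehicle cords. Cox6a2, the muscle partner of Cox6a1, had counts in 2 paclitaxel libraries and 0 vehicle libraries, with a highest value of 0.212 CPM, while Cox6a1 averaged 188 ± 13.0 CPM in paclitaxel cords and 208 ± 23.0 CPM in vehicle cords. Cox8b, also a muscle form, reached 1.10 CPM in paclitaxel cords and 1.32 CPM in vehicle cords. Of the forms known from testis, Cox6b2 reached 2.22 CPM in paclitaxel cords and 1.74 CPM in vehicle cords, Cox7b2 reached 0.469 and 0.524 CPM in the same order, and Cox8c had 0 counts in all 10 libraries, which allows up to 0.819 CPM in the shallowest. Cox4i2, the isoform of subunit IV known from lung, was listed at 0.550 to 1.17 CPM with paclitaxel and 0.524 to 1.95 CPM with vehicle.

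Among the other ubiquitous forms, Cox6a1 had 180, 206, 185, 195 and 173 CPM with paclitaxel, against 172, 204, 233, 209 and 221 CPM with vehicle, a log2 fold change of -0.14 (SE 0.07; edgeR unadjusted p = 0.0506). Cox6b1, which faces the cytochrome c binding site, averaged 133 ± 8.62 CPM in paclitaxel cords and 144 ± 13.7 CPM in vehicle cords (mean and SD, n = 5 each), a log2 fold change of -0.11 (SE 0.07). For both genes all paclitaxel libraries were below the vehicle mean and the groups overlapped. Cox7a2, Cox7b and Cox7a2l had log2 fold changes of -0.05, -0.03 and 0.02, each smaller than its SE of 0.06 to 0.07. Cox7a2l, which joins complexes III and IV into supercomplexes, was the gene of complex IV that was higher in value.

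Complex V couples proton flow through a rotating membrane ring of c subunits to ATP synthesis in its catalytic head. Its 17 genes were the most abundant group and summed to 4003 ± 93.6 CPM in paclitaxel cords and 4122 ± 94.9 CPM in vehicle cords (mean and SD, n = 5 each), with 15 lower in value, 2 higher and a median log2 fold change of -0.06. Atp5b, the catalytic subunit of the head, had the highest level per kilobase of all 79 genes, at 674 CPM per kilobase in paclitaxel cords and 695 in vehicle cords, and its log2 fold change was -0.04 (SE 0.04). Atp5b was named after its level was seen. Atp5e encodes the epsilon subunit of the central stalk (chr2:174461075-174464101). It had 50.6, 55.3, 56.9, 57.8 and 61.1 CPM with paclitaxel, against 60.7, 62.4, 70.2, 65.8 and 71.0 CPM with vehicle. The groups overlapped by a small margin, through paclitaxel replicate 5 and vehicle replicate 1. The log2 fold change was -0.23 (SE 0.07; edgeR unadjusted p = 0.00427). Atp5j, coupling factor 6 of the peripheral stalk, averaged 119 ± 9.90 CPM in paclitaxel cords and 130 ± 3.73 CPM in vehicle cords (mean and SD, n = 5 each; log2 fold change -0.12, SE 0.06).

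Subunit c of the ring comes from 3 genes, Atp5g1, Atp5g2 and Atp5g3, whose last 78 codons encode the same residues. Their coding sequences over these codons are printed because the 3 genes make 1 protein from different RNA, and 2 of them are among the 9 genes. Capitals mark the 63 of 234 bases at which the 3 are not all the same; the sequences are from GENCODE transcripts of GRCm38, 5′ to 3′ on the coding strand.
Atp5g1: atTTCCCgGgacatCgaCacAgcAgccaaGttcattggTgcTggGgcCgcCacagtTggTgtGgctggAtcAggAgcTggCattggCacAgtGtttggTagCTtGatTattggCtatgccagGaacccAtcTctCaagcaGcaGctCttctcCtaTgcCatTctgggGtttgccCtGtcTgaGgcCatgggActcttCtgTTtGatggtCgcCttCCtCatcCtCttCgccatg
Atp5g2: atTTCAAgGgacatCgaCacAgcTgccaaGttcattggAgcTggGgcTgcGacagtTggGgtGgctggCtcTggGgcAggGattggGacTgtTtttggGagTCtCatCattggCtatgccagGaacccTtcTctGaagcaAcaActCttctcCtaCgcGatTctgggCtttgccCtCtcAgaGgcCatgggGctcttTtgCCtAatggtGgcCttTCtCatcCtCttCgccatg
Atp5g3: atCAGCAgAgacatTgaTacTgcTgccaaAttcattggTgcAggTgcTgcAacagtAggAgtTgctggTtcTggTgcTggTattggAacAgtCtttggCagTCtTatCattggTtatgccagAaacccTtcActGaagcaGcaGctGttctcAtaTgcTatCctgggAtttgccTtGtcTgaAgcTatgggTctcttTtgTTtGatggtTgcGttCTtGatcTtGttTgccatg

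Between pairs, 84.6% of these bases were identical for Atp5g1 and Atp5g2, 78.6% for Atp5g1 and Atp5g3 and 77.4% for Atp5g2 and Atp5g3, and the longest run shared by the coding sequences of a pair was 21 bases. Atp5g1 (chr11:96072793-96075694) had 95.4, 106, 109, 108 and 105 CPM with paclitaxel, against 99.4, 117, 134, 115 and 121 CPM with vehicle. Atp5g2 (chr15:102662868-102671047) had 69.4, 68.8, 64.3, 70.7 and 72.5 CPM with paclitaxel, against 80.1, 74.9, 78.1, 68.8 and 77.4 CPM with vehicle. For both, all paclitaxel libraries were below the vehicle mean and 1 vehicle library, replicate 1 for Atp5g1 and replicate 4 for Atp5g2, reached into the paclitaxel range. The log2 fold changes were -0.17 (SE 0.07; edgeR unadjusted p = 0.0262) for Atp5g1 and -0.14 (SE 0.07; unadjusted p = 0.0487) for Atp5g2. Atp5g3 (chr2:73908447-73912464), the most abundant of the 3, had 230, 212, 213, 210 and 202 CPM with paclitaxel, against 203, 220, 236, 209 and 219 CPM with vehicle, and a log2 fold change of -0.03 (SE 0.05; unadjusted p = 0.633). The differences between the fold changes of the 3 genes were not tested.

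The largest positive fold change of complex V belonged to Atp5s, named here after its values were seen. Atp5s had 19.9, 10.9, 17.2, 17.5 and 15.05 CPM with paclitaxel, against 15.9, 15.7, 12.3, 8.03 and 12.9 CPM with vehicle. The groups overlapped over most of their range, and the log2 fold change was 0.28 (SE 0.17). Without Atp5s, Atp5sl and Cox7a2l, 63 of 76 tested genes were lower in value, with 9 at an unadjusted p under 0.05 and a median log2 fold change of -0.07.

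The libraries of the paclitaxel group differed among themselves. A score was taken per library by averaging, over the tested genes, the distance of log2 CPM from its mean in vehicle libraries. Over all 79 genes it was -0.17, -0.09, -0.12, 0.03 and 0.001 in paclitaxel replicates 1 to 5, against -0.02, 0.02, 0.04, -0.05 and 0.02 in vehicle replicates 1 to 5. Paclitaxel replicates 1 to 3 were below every vehicle library and replicates 4 and 5 lay within the vehicle range. Counted gene by gene, 60, 65, 63, 34 and 43 of the 79 were below the vehicle mean in paclitaxel replicates 1 to 5, against 45, 40, 28, 59 and 28 in vehicle replicates 1 to 5. Complex IV had the lowest score of all, -0.29 in paclitaxel replicate 1, and complex II stayed between -0.10 and 0.01 in the paclitaxel libraries. Each tested gene weighs the same in a score. That of complex IV includes Cox7a1, near the detection limit, with 4 counts in each of paclitaxel replicates 1 and 3. The part of Cox7a1 in the complex IV score was not tested.

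**Figure D4:**
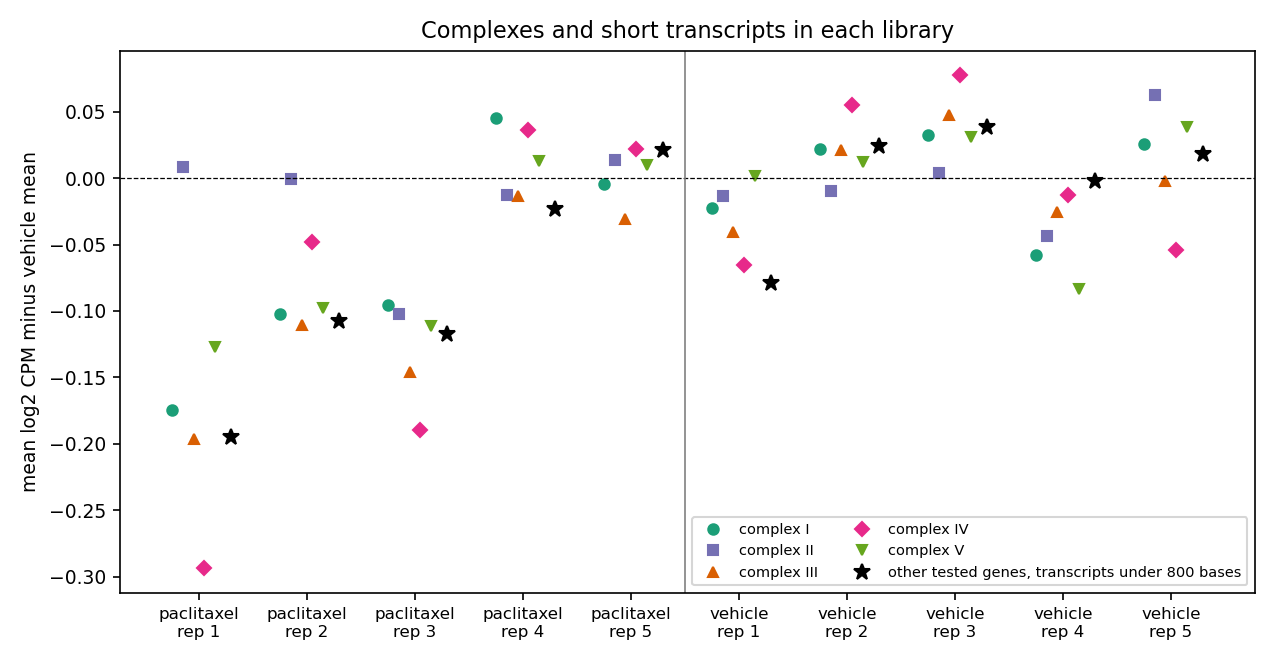
Mean log2 CPM minus the vehicle mean for the tested genes of each complex (coloured symbols) and for 338 other tested genes with transcripts under 800 bases (stars) in each library, paclitaxel libraries left of the grey line and vehicle libraries right of it. Complexes I, III and V lie lowest in paclitaxel replicates 1 to 3, where the stars also lie lowest (-0.20, -0.11 and -0.12), and complex IV in replicates 1 and 3, with replicate 2 (-0.05) within the vehicle range. The complex IV values include Cox7a1, which is near the detection limit.

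Transcript length moved with these values. The 338 other tested genes with transcripts under 800 bases had scores of -0.20, -0.11, -0.12, -0.02 and 0.02 in paclitaxel replicates 1 to 5, against -0.08, 0.02, 0.04, -0.002 and 0.02 in vehicle replicates 1 to 5, so their low libraries were also paclitaxel replicates 1 to 3. Short transcripts make up 41 of the 79 genes. Among these 41, the median log2 fold change was -0.09 and 9 were lower at an unadjusted p under 0.05 (22.0%), against a median of -0.06 and 16 of the 338 other short genes (4.73%). The 41 summed to a mean of 4062 CPM with paclitaxel and 4337 CPM with vehicle. The 338 summed to 12128 and 12533 CPM in the same order, so that a gene of the 41 was on average more abundant. The part of abundance in these 2 shares was not tested. Between 800 and 1600 bases the median was -0.06 for 24 genes of the chain and -0.03 for the others, and between 1600 and 3200 bases -0.02 for 14 genes of the chain and -0.01 for the others. From 800 to 3200 bases, 0 of the 38 genes of the chain were lower at an unadjusted p under 0.05 in edgeR, where 250 of 6673 other genes were (3.75%), so that 0 of 38 lies near that share.

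A loess correction of each library for GC content and transcript length moved the median of the 79 genes of the chain towards 0. Their median log2 fold change was then -0.03, against -0.07 without it, and 52 of 79 were lower in value. At an unadjusted p under 0.05 in edgeR, 3 were then lower, where 2.12% of all genes were. These 3 belonged to the 9: Uqcr11 at -0.24, Ndufa3 at -0.19 and Ndufb2 at -0.18 on the log2 scale. Cox8a and Cox4i1 moved to -0.04 and -0.02, Atp5e to -0.12, Atp5g1 and Atp5g2 to -0.07 and -0.05, and Uqcr10 to -0.07. By complex, the corrected medians were -0.01 for complex I, -0.03 for complex II, -0.04 for complex III, -0.02 for complex IV and -0.03 for complex V. Those of complexes I, III, IV and V lay nearer 0 than without correction, and that of complex II lay further from it (-0.02 without correction). Cycs moved from 0.02 to -0.05. The part of transcript length in the uncorrected values was not tested beyond this correction.

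**Figure D5:**
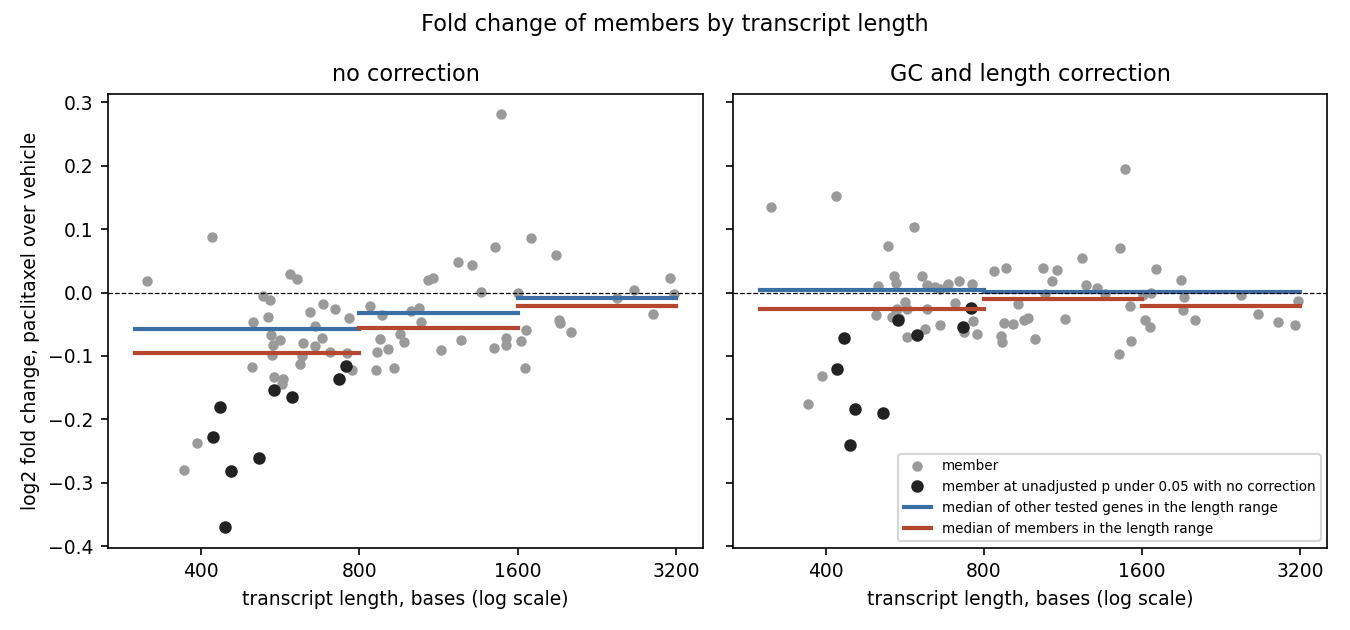
Log2 fold change of paclitaxel over vehicle against transcript length (log scale) for the 79 tested genes, without correction on the left and after the loess correction for GC content and length on the right. Black points are the 9 genes at an unadjusted p under 0.05 without correction, red bars medians of the 79 genes per length range and blue bars medians of the other tested genes; on the left both medians are lowest under 800 bases (-0.09 and -0.06), and on the right both are near 0 (-0.03 and 0.004).

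Summed markers of the cell types of the cord are given beside these values. The 12 neuron markers summed to 11739 CPM in paclitaxel replicate 3 and to between 13937 and 14546 CPM in the other paclitaxel libraries. With vehicle they summed to between 13896 and 15032 CPM. The means were 13686 ± 1114 CPM with paclitaxel and 14348 ± 437 CPM with vehicle (mean and SD, n = 5 each), a difference of -4.62%. The 8 oligodendrocyte markers summed to 21253 CPM in paclitaxel replicate 3 and to between 23354 and 25082 CPM in the other paclitaxel libraries. With vehicle their sums lay between 21803 and 24208 CPM. The 7 astrocyte markers summed to between 5398 and 5924 CPM with paclitaxel and between 5222 and 5593 CPM with vehicle, and their per-library score lay between 0.05 and 0.09 with paclitaxel and between -0.02 and 0.04 with vehicle. Of tissues rich in mitochondria that dissection could add, the 11 skeletal muscle markers summed to between 10.6 and 14.7 CPM with paclitaxel and between 11.8 and 16.4 CPM with vehicle, most of it Myh7, and Ucp1 of brown fat had 0 counts in all 10 libraries. The part of these marker levels in the values of the respiratory chain was not tested.

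Genes that build or feed the chain were read from lists. Among 16 complex I assembly factors, 5 were higher in value and 11 lower, with a median log2 fold change of -0.05 and 0 at an unadjusted p under 0.05 in edgeR. Ndufaf2, a chaperone of late complex I assembly, had 23.0, 25.0, 25.0, 26.2 and 26.8 CPM with paclitaxel, against 29.1, 26.4, 28.2, 28.0 and 27.2 CPM with vehicle, a log2 fold change of -0.14 (SE 0.09), with an overlap through paclitaxel replicate 5. Tmem126b of the intermediate assembly complex had -0.22 (SE 0.14) and Foxred1 0.13 (SE 0.09). For complex II the assembly factors were 3 higher and 1 lower in value (median 0.06), with Sdhaf3 at -0.24 (SE 0.17). For complex III they were 1 higher and 5 lower (median -0.11), with Uqcc3 at -0.19 (SE 0.13), Bcs1l, which inserts the iron-sulfur protein, at -0.19 (SE 0.15) and Uqcc2 at -0.18 (SE 0.10).

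Among 20 complex IV assembly factors, 5 were higher in value and 15 lower, with a median log2 fold change of -0.07. At an unadjusted p under 0.05 in edgeR 1 of the 20 was lower (5%), where 3.12% of all genes tested were. This was Cox17, the copper chaperone that supplies complex IV. It had 30.5, 30.3, 34.6, 36.3 and 36.9 CPM with paclitaxel, against 34.2, 44.4, 35.2, 39.3 and 40.4 CPM with vehicle, and the groups overlapped (log2 fold change -0.20, SE 0.09; edgeR unadjusted p = 0.0348). Cox14 differed by -0.19 (SE 0.09) and Cox15, needed to make haem A, by 0.16 (SE 0.09). The 4 complex V assembly factors, among them Atpaf1 and Atpaf2, lay between -0.02 and 0.02. Of 4 tested subunits whose symbols the rule does not take, 2 were higher in value and 2 lower. Ndufab1, the mitochondrial acyl carrier protein within complex I, differed by -0.14 (SE 0.08), Atpif1, the inhibitor of the ATP synthase, by -0.07 (SE 0.06), and 2010107E04Rik, a small protein of the ATP synthase, by 0.04 (SE 0.08).

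Upstream of the chain, 6 of 20 genes of the citric acid cycle and pyruvate entry were higher in value and 14 lower, with a median log2 fold change of -0.02. Idh3b, a subunit of NAD-dependent isocitrate dehydrogenase, had 238, 230, 231, 222 and 224 CPM with paclitaxel, against 251, 263, 253, 241 and 236 CPM with vehicle. Its groups overlapped through paclitaxel replicate 1 and vehicle replicate 5 (log2 fold change -0.12, SE 0.05, edgeR unadjusted p = 0.0244). Idh3b was the 1 gene of the 20 (5%) that was lower at an unadjusted p under 0.05, where 3.12% of all genes tested were. The genes of the mitochondrial pyruvate carrier lay on opposite sides of 0, Mpc1 at 0.15 (SE 0.07) and Mpc2 at -0.12 (SE 0.07). All 16 glycolysis genes were lower in value, with a median of -0.04, and Pfkl, Aldoa and Pkm differed by -0.17 (SE 0.12), -0.07 (SE 0.05) and -0.07 (SE 0.05). After the GC and length correction 9 of the 16 were lower and the median was -0.004. The correction did not move every list towards 0. Corrected medians were -0.03 for the citric acid cycle list (15 of 20 lower) and -0.06 for complex I assembly factors (12 of 16 lower). They were -0.05 for complex IV assembly factors (14 of 20 lower) and -0.05 for the mitochondrial stress response (9 of 13 lower). Regulators of mitochondrial biogenesis, described below, had 0.008 (6 of 16 lower). Of 13 genes of the mitochondrial stress response, 2 were higher in value and 11 lower (median -0.08). Asns, asparagine synthetase, had 72.2 to 79.0 CPM with paclitaxel and 79.2 to 85.7 CPM with vehicle (log2 fold change -0.12, SE 0.06). Its groups did not overlap, which held for 0.625% of all genes tested in this direction and 0.467% in the other. Hspd1, the chaperonin of the matrix, differed by -0.11 (SE 0.06) and Psat1 of serine synthesis by 0.12 (SE 0.06). In edgeR 0 of the 13 reached an unadjusted p under 0.05 without the GC and length correction. With the correction 2 of the 13 were lower at that threshold, where 2.12% of all genes tested were. Hspd1 was then at -0.14 on the log2 scale (edgeR unadjusted p = 0.0168, adjusted p = 0.989).

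Regulators of mitochondrial biogenesis lay on both sides of 0, 8 higher in value and 8 lower, with a median log2 fold change of 0.003. At an unadjusted p under 0.05 in edgeR 1 of the 16 was lower (6.25%) and 1 higher. Over all genes tested 3.12% were lower and 2.94% higher. Esrra, the oestrogen-related receptor that binds many respiratory chain promoters, had 57.0, 73.6, 56.3, 68.8 and 69.2 CPM with paclitaxel, against 65.3, 88.2, 92.2, 81.8 and 73.8 CPM with vehicle. The groups overlapped through vehicle replicate 1, and all paclitaxel libraries lay below the vehicle mean (log2 fold change -0.30, SE 0.10; edgeR unadjusted p = 0.0054, adjusted p = 0.792). Its coactivators differed in opposite directions. Ppargc1a had 85.5, 77.4, 93.0, 77.2 and 65.7 CPM with paclitaxel, against 77.0, 68.1, 64.2, 74.4 and 67.2 CPM with vehicle (log2 fold change 0.18, SE 0.08; edgeR unadjusted p = 0.0339). Ppargc1b averaged 11.6 CPM in paclitaxel cords and 13.8 CPM in vehicle cords (-0.25, SE 0.12). None of these genes passed the adjusted test.

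Promoters of the chain hold a few motifs more often than others do, which is a property of the genome and not of these samples. RefSeq windows of GRCm38.p6 from 250 bases before to 50 after the start were matched for 70 of the 85 genes, in 76 windows, and both strands were searched. The core of the nuclear respiratory factor NRF1, GCGCA, any 1 base, then GCGC, was in 23.7% of the 76 windows and 4.60% of all 32851 windows. The ETS core CCGGAAG, read by the nuclear respiratory factor GABP, was in 21.1% and 8.86%, the YY1 core ATGGCGG in 17.1% and 4.05%, and the TATA element TATAAA in 10.5% and 13.6%. Of the 9 genes, 8 had a window (all but Cox4i1). The ETS core was in 3 of them, Uqcr11, Atp5e and Cox8a, the NRF1 core in 1, Atp5g2, the TATA element in 1, Ndufa3, and the YY1 core in 0. The 250 bases before the start are printed for the gene of largest difference and for both complex V genes with a motif, each on the minus strand and 5′ to 3′, with the motif in capitals. They are chr10:80406822-80407071 for Uqcr11, chr2:174464102-174464351 for Atp5e and chr15:102671048-102671297 for Atp5g2.
Uqcr11: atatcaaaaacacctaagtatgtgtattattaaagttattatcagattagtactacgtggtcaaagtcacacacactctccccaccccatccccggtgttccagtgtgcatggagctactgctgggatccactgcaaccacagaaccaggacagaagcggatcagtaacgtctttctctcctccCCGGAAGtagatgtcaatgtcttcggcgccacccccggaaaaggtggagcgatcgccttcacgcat
Atp5e: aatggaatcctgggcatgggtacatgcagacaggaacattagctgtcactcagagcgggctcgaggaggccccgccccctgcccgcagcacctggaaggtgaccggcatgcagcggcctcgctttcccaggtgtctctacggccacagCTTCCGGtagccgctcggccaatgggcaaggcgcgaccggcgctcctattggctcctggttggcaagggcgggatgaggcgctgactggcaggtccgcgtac
Atp5g2: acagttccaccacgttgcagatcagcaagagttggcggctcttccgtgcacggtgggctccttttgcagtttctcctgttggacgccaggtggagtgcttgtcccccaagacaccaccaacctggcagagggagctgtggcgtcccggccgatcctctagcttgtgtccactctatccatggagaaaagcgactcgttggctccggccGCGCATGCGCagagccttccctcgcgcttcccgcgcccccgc

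The ETS core of Uqcr11 is in the sense direction and ends 60 bases before the start, and that of Atp5e is in the antisense direction and ends 96 bases before it. The NRF1 core of Atp5g2 reads the same on both strands and ends 33 bases before the start. These 3 genes were at -0.37, -0.23 and -0.14 on the log2 scale, and the data hold no measurement of binding at these letters.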

How the data were processed

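Paclitaxel and vehicle lumbar cord samples were sequenced as mRNA libraries on an Illumina instrument, per the labels' protocols. The deposited values are RSEM expected counts per gene, not scaled to depth by the authors; 5.04% were not whole, and all were rounded before testing. Per the submitters' processing notes STAR, RSEM, edgeR 4.2.0 and build mm10 were used. Sources used here do not give the annotation release, the strand setting or read filters.

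Counts were filtered with filterByExpr (minimum count 10, minimum total 15), scaled by TMM and tested without covariates by edgeR's quasi-likelihood test with robust dispersions (edgeR 4.0.16, R 4.3.3). P-values were two-sided and adjusted by the Benjamini-Hochberg method over 13287 genes, threshold 0.05. CPM values use TMM-scaled library sizes, 2 counts are added before log2, SE is the size of the fold change over the root of F, and 95% intervals follow from it. Variation between libraries beyond counting error was 8.23% (edgeR's common estimate), and its sources were not tested. Replicate libraries differed beyond sampling noise in every pair, by a chi-square of 1.63 to 6.88 per degree of freedom. Counting limits cover counting error only.

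Transcript length and GC content are means over GENCODE M21 transcripts, for 99.7% of genes tested; the loess correction has a span of 0.5. Near-identical transcripts were found with BLAST 2.17.0. Coordinates and promoters are from RefSeq on GRCm38.p6, the assembly of mm10. The procedure was tested on simulated data. Alternatives were other scalings and filters, DESeq2 1.42.0, limma 3.58.1 with voom, the loess correction, the replicate number as a block and left-out libraries.

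The genes and lists were chosen with earlier results of these data known. Genes named are all those of the chain at an unadjusted p under 0.05, the 4 of lowest p in each complex (all of complex II), the tissue isoforms of complex IV and subunit c, Cyc1 and Cycs, up to 3 of lowest p in each other list, and cell type markers; others are marked where they appear.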

Additional observations from a re-analysis of the deposited data

Results flagged for a closer look

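In 12 of 126 groups of 5 libraries, among the genes named and their groups, 1 library lay far from the other 4 by Dixon's criterion, where chance alone gives about 1 in 20 such groups. Among genes of the chain, Uqcr11 in vehicle replicate 1 was at 42.8 CPM, while the other vehicle libraries lay between 58.6 and 61.8 CPM. Sdha in paclitaxel replicate 1 was at 604 CPM (others 562 to 572 CPM), and Sdha in vehicle replicate 4 at 573 CPM (others 590 to 596 CPM). Sdhd in paclitaxel replicate 3 was at 75.6 CPM (others 81.8 to 82.9 CPM), and Cox7a1 in vehicle replicate 5 at 1.03 CPM (others 2.82 to 3.49 CPM).

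Among assembly factors and other genes, Uqcc3 in paclitaxel replicate 2 was at 15.7 CPM (others 11.7 to 12.6 CPM), Cox15 in paclitaxel replicate 3 at 46.7 CPM (35.0 to 38.1 CPM) and Atpif1 in paclitaxel replicate 5 at 118 CPM (106 to 110 CPM). Pfkl in paclitaxel replicate 3 was at 91.1 CPM (116 to 120 CPM). In vehicle libraries, Sdhaf4 was at 15.5 CPM in replicate 5 (12.4 to 13.0 CPM), Cox14 at 47.7 CPM in replicate 1 (52.1 to 52.5 CPM) and Psat1 at 214 CPM in replicate 5 (187 to 195 CPM).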

How the results depend on the processing

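Over 22 settings, no named gene passed the adjusted threshold, and 1213 of 1254 values of the 57 named genes kept their sign. The median log2 fold change of the chain was below 0 in all of these and without 15 genes that have near-identical copies or are no subunits, from -0.08 to -0.03 with 1 library left out and -0.03 with the loess correction for GC content and length. The count of chain genes lower at an unadjusted p under 0.05 was 9. It was 3 with the loess correction and 3 with that correction and the replicate block together, and ran from 4 to 13 with 1 library left out. Over all genes, 0 passed the adjusted threshold in edgeR without the replicate block. In edgeR 1 passed with the block and 1 with the loess correction and the block, and 1 passed with DESeq2. The count of all genes at an unadjusted p under 0.05 was 806; it ran from 515 without vehicle replicate 3 to 1299 without vehicle replicate 1 and was 508 without paclitaxel replicate 3 and vehicle replicate 4 together. The causes were not tested.

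Same-numbered libraries showed little shared deviation (correlations from -0.10 to 0.14, the best match being the own number for 2 of 5). The labels do not say whether the numbers pair the samples, and these correlations cannot decide it. With the replicate block 10 chain genes were lower at an unadjusted p under 0.05 in edgeR, with a median log2 fold change of -0.07. With 5 libraries in each group and a median standard error of 0.07 on the log2 scale for the 79 genes, differences of a few percent in a single gene are not detectable. The largest difference of the 79, 0.774-fold for Uqcr11, did not pass either (edgeR adjusted p = 0.792). The parts of depth and of the spread between libraries in this limit were not tested.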
